A study of Catharus ustulatus with 19 samples.

Results

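In the brains of 19 Swainson's thrushes (Catharus ustulatus), migratory songbirds held in captivity, 60 genes were selected because their expression followed the hour of the day at which the bird was sampled. For each of 11727 genes, the deposited values and the hours after lights on were both centred on the mean of the bird's group, and the Pearson correlation (r) was taken over the 19 birds. The members are the 60 genes with the largest absolute r. Since hour and expression chose them, their slopes and correlations over all 19 birds are given as a description, with no test. Of the 60, 41 fell and 19 rose as the day went on.

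The sequenced RNA came from brain tissue with the hypothalamus and the optic chiasma, where the optic nerves cross. The 4 groups were migratory inland (5 males), non-migratory inland (4 males), migratory coastal (3 males and 1 female) and non-migratory coastal birds (4 males and 2 females), where inland and coastal are the ecotypes of the species. All birds had been held in captivity under the same conditions with a day length that followed the season, and every bird is a separate animal. Age is not stated in the labels. Non-migratory birds were taken on 7 and 8 August and migratory birds on 3 and 4 October, apart from 1 migratory inland bird taken on 7 August and 1 non-migratory coastal female taken on 4 October. Values are on a log scale whose base is not stated; they are read here as log2, and every fold rests on that reading. The sequencing depth is unknown. The identifiers, of the form ENSFALG, are paired with no gene names in the table, and 0 of the 11727 matched the 19631 RefSeq genes supplied for the species. With the sources used here, the labelled tissue could therefore not be checked against marker genes, and no role is given for a member.

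In birds as in mammals, many genes rise and fall over the day. A molecular clock of transcription factors, which switch on their own repressors, keeps this rhythm in most cells, and light at dawn resets it. The avian hypothalamus holds one of the central clocks, together with the pineal gland and the retina, and it also senses day length, which times the migratory season. Feeding, activity and stress hormones change over the morning as well, so a gene can follow the hour without being part of the clock. In a block of tissue, fewer cells of a type and less RNA per cell cannot be told apart.

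The hours set what the data can show. Birds were taken between 2.5 and 8.57 hours after lights on, and other hours, among them the night, were not sampled. As day length followed the season, the same hour can mark a different part of the day in August and October. Within groups, the hours ran from 2.52 to 8.57 in migratory coastal, 2.87 to 7.65 in migratory inland, 2.5 to 7.55 in non-migratory coastal and 3.03 to 6.533 in non-migratory inland birds. They fell into 7 early birds (up to 3.13 hours), 5 in the middle (3.97 to 5.2) and 7 late birds (6.03 to 8.57). A few birds far from their group's mean hour carry much of each correlation. The migratory coastal female taken at 8.57 hours held 16.0% of the sum of squares of the centred hours, the non-migratory coastal female at 7.55 hours 12.4%, and the migratory inland male at 7.65 hours 12.1%. Females were taken at 2.65, 7.55 and 8.57 hours, so 2 of the 3 latest birds were females.

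ENSFALG00000004057 followed the hour most closely of all genes, with an r of -0.94 (Spearman's rho -0.89). In migratory coastal birds it stood at 29.21 log2 at 2.52 hours, 29.34 at 2.7, 28.68 at 7.07 and 28.24 at 8.57. Migratory inland birds went from 29.13 at 2.87 hours and 29.28 at 3.13 through 29.11 at 3.97 and 28.59 at 6.03 to 27.90 at 7.65. In non-migratory inland birds the values were 29.20 at 3.03 hours, 28.48 at 5.07, 28.66 at 5.2 and 28.22 at 6.533. The same fall thus appeared in both statuses of the inland ecotype, and each group's earliest bird lay above its latest. The 6 non-migratory coastal birds ranged from 28.24, in the latest, through a median of 28.88 to 29.43, in the earliest. The 7 early birds (29.13 to 29.43) did not overlap the 7 late ones (27.90 to 28.80), while the middle birds, at 28.48 to 29.11, overlapped the late ones. The slope was -0.21 ± 0.02 log2 per hour (SE, n = 19, limma fit with group and sex in the model), or 2.38-fold over the 6.07 hours sampled. Members were chosen for a close fit to the hour line, so the SEs given for slopes of the named genes tend to be too small. The slope was negative in each group, from -0.16 log2 per hour in migratory coastal to -0.28 in non-migratory inland birds. Without the 2 birds farthest from the median hour r was -0.92.

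ENSFALG00000011294, the second falling gene, had an r of -0.90 (rho -0.90). Its early birds stood at 29.68 to 30.03 log2 (median 29.96) and its late birds at 29.30 to 29.55 (median 29.38), again without overlap. The middle birds lay at 29.29 to 29.75, and the lowest of them, the non-migratory inland male at 5.07 hours, was below all the late birds. The slope was -0.12 ± 0.02 log2 per hour (SE, n = 19), 1.63-fold over the hours sampled, and ran from -0.08 in migratory coastal to -0.15 in non-migratory inland birds. Without the 2 birds farthest from the median hour r was -0.91.

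The leading rising gene, ENSFALG00000006846, had an r of 0.86 (rho 0.91). It stood at 27.57 to 27.89 log2 in the early birds (median 27.77) and 27.79 to 28.33 in the late ones (median 28.14). The sets overlapped in 1 late bird, the migratory inland male at 6.03 hours (27.79). Migratory inland birds stood at 27.71 to 27.79 log2 up to that hour and at 28.09 at 7.65. The slope was 0.08 ± 0.02 log2 per hour (SE, n = 19), or 1.39-fold over the hours sampled, and was positive in each group, between 0.07 and 0.09. Without the 2 birds farthest from the median hour r was 0.86.

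ENSFALG00000010646, the second rising gene, rose the most per hour of the 19, by 0.16 ± 0.03 log2 (SE, n = 19), or 1.98-fold over the hours sampled, with an r of 0.81 (rho 0.80). Early birds stood at 27.57 to 28.12 log2 (median 27.75) and late birds at 27.85 to 28.85 (median 28.62). The late birds that overlapped the early ones were the non-migratory inland male at 6.533 hours (27.85) and the migratory inland male at 6.03 hours (27.95). The slope in non-migratory inland birds was -0.02 log2 per hour, against 0.15 to 0.21 in the other 3 groups. Without the 2 birds farthest from the median hour r was 0.76.

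**Figure D1:**
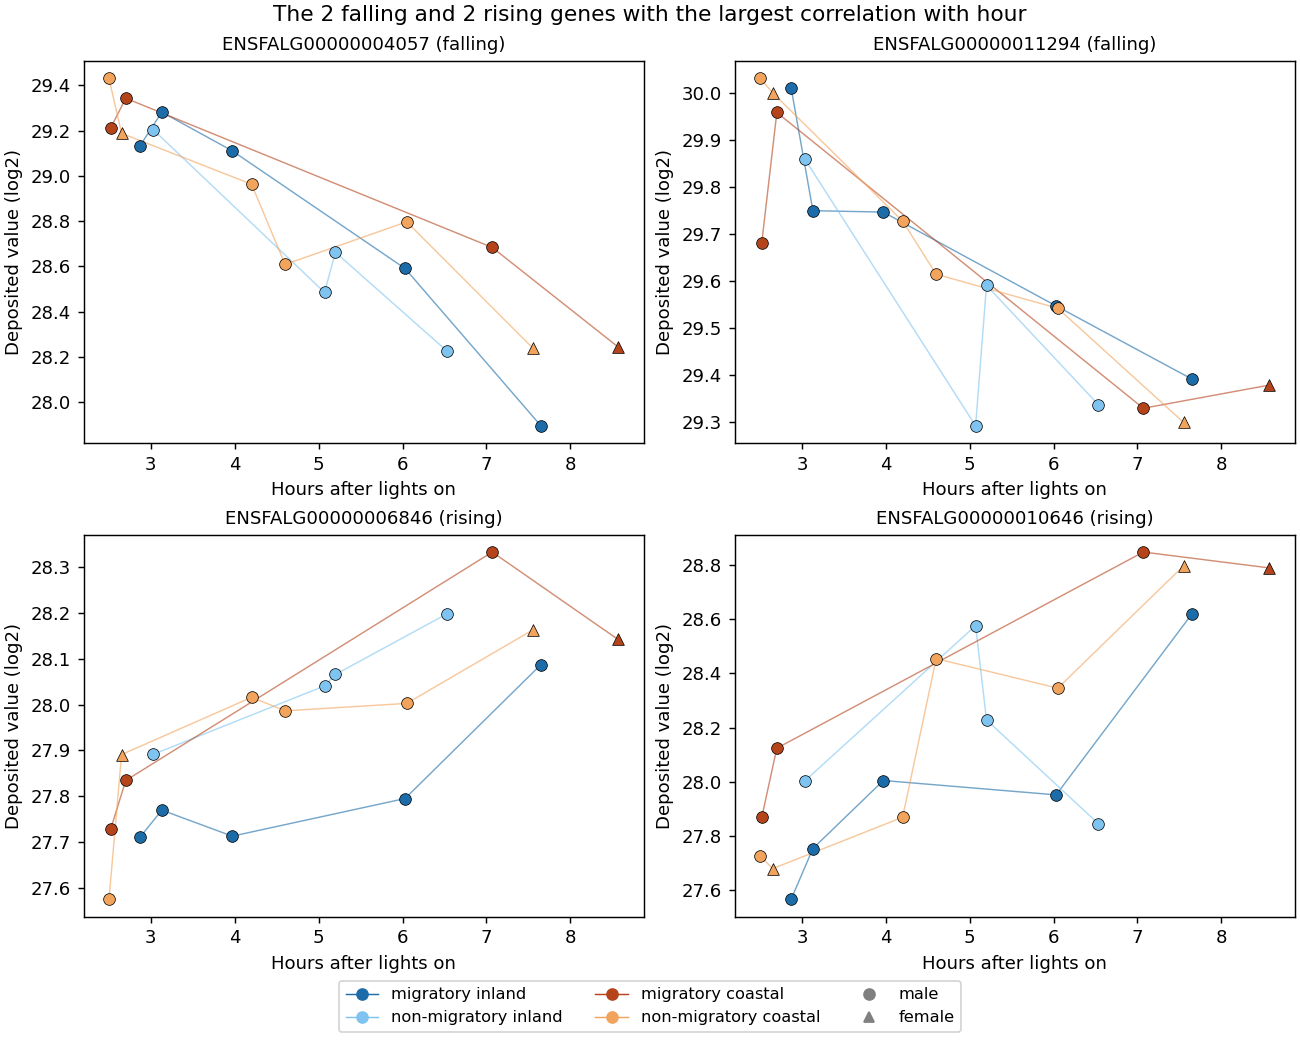
Deposited values (log2, vertical axes that do not start at 0) against hours after lights on for the 2 falling and 2 rising genes with the largest correlation; points are single birds, circles males, triangles females, and thin lines join the birds of a group. ENSFALG00000004057 falls from 29.13 to 29.43 log2 in the early birds to 27.90 to 28.80 in the late ones. For ENSFALG00000010646 the latest of the non-migratory inland birds, at 6.533 hours, is the lowest of its group (27.85).

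Over the whole set the changes were mostly small. The absolute r of the members ran from 0.70 to 0.94. Just inside the limit were genes at 0.705, -0.704 and 0.704, and just outside genes at 0.703, 0.702 and 0.701, so the last members hardly differ from the next genes. With group and sex in the model, the 19 rising members had slopes of 0.04 to 0.16 log2 per hour (median 0.06, 1.30-fold over the hours sampled). The 41 falling members had slopes of -0.45 to -0.02 (median -0.06, 1.28-fold), and 12 of them fell by more than 0.1 per hour, as against 3 rising members above 0.1. Over all 11727 genes the median absolute slope was 0.02 log2 per hour.

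The steepest member, the thirteenth falling gene by r and singled out after its values were seen, varied the most between birds taken at like hours. It ran from 25.64 to 28.21 log2 in early birds (median 26.99), from 25.50 to 26.92 in the middle (median 26.21) and from 24.68 to 25.80 in late birds (median 25.21). Its slope of -0.45 log2 per hour, with sex in the model, corresponds to 6.52-fold over the hours sampled. Without the sex term, which rests on 3 females, the slope was -0.38. The fitted difference of females minus males was 1.06 log2 for this gene, with hour in the model. Its early and late birds overlapped slightly. In 9 of the 41 falling members no late bird reached the level of any early bird, where the background was 0.111% of all genes. None of the 19 rising members separated in this way, and none of all genes did either (0%). With limma's slope test over all genes (Benjamini-Hochberg adjusted p under 0.05), 9 members were called, 3 rising and 6 falling, against a background of 0.0938% of genes (0.0426% rising and 0.0512% falling). Both named falling genes were among the 6. Neither named rising gene was among the 3 (limma, adjusted p = 0.0605 for ENSFALG00000006846 and 0.0596 for ENSFALG00000010646). The overlaps and these calls use the same values that chose the members, so they are no test of them and nothing follows from either count.

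From early to late birds the members mostly moved in one direction. The choice by a linear correlation with hour in the same birds all but fixes this, so the values are a description. The median of the falling members, relative to the group mean, was 0.13 log2 in early, -0.01 in middle and -0.13 in late birds, and that of the rising members -0.13, 0.02 and 0.14. The middle birds' mean lay between those of early and late birds in 59 of the 60 members, and in 39.3% of all genes. A curve term was below an unadjusted p of 0.05 in 1 member (1.67%) and in 7.43% of all genes, by limma, but a selection for straight lines favours such genes. Hours after 8.57 were not sampled.

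**Figure D2:**
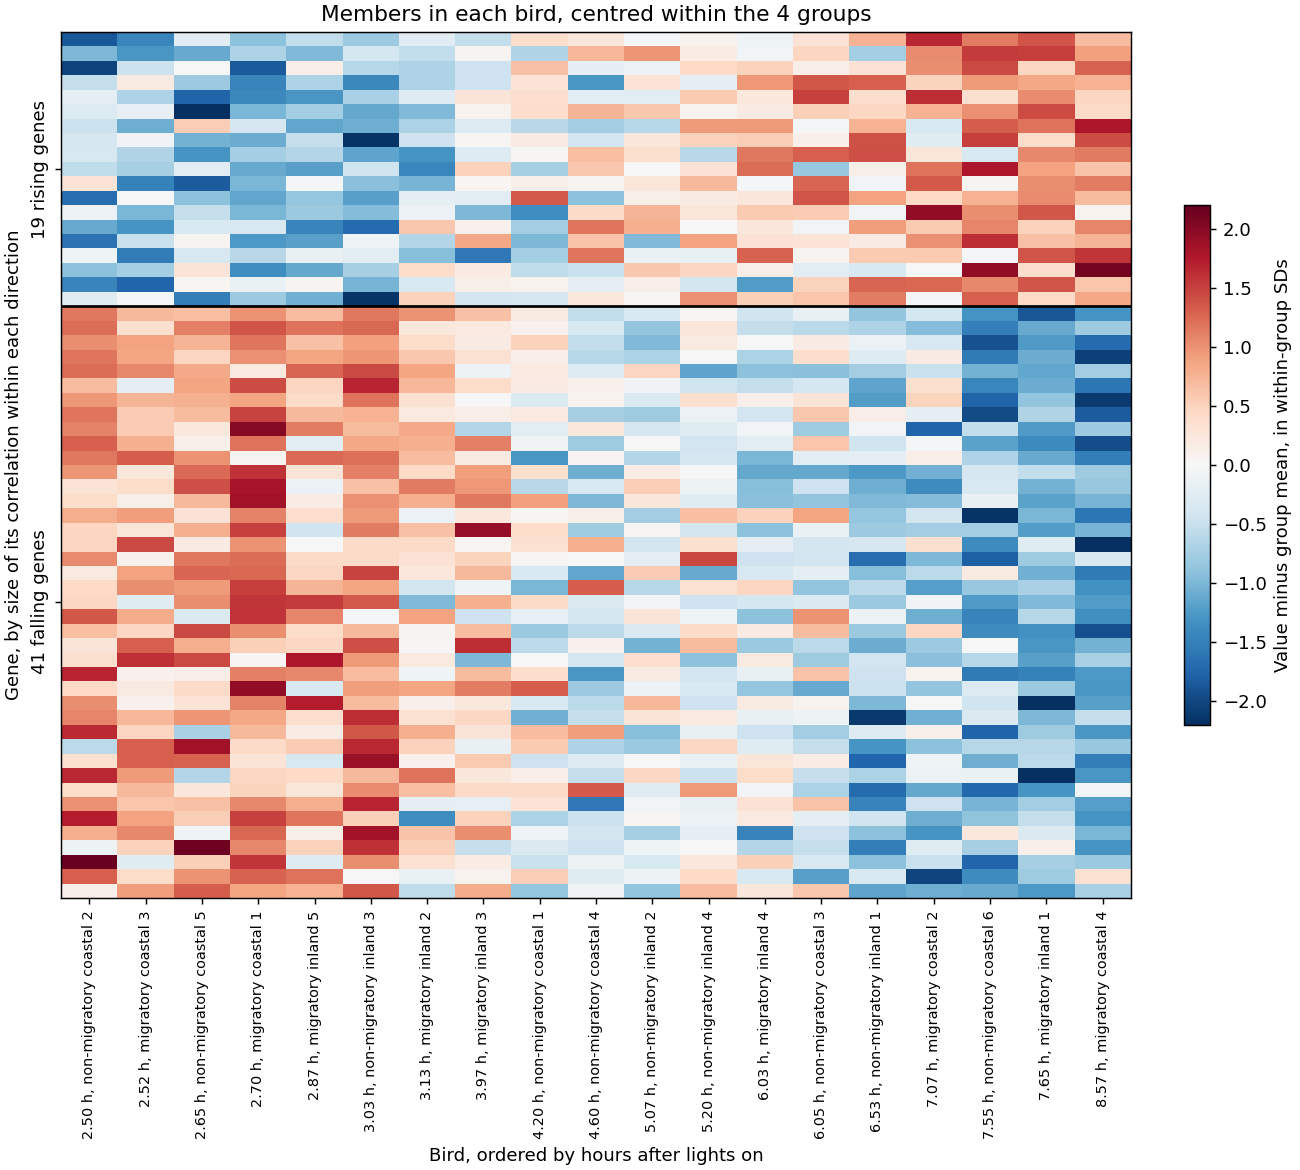
Each of the 60 members (rows, rising above the black line, falling below, each in order of absolute correlation) in the 19 birds (columns, ordered by hours after lights on); colour is the value minus the group mean, in within-group SDs, red high and blue low. Rising genes pass from blue to red and falling genes from red to blue, and in the birds between 3.97 and 5.2 hours the median over members is near 0 (0.02 log2 rising, -0.01 falling) while single members spread to both sides.

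The level of a gene was not used to choose it, and it differed between falling and rising members. Falling members had a median level of 29.21 log2 and rising members 28.07, against 28.04 for all genes. Of the 41 falling members, 21 lay above the upper quartile of all genes by level (29.17 log2) and 5 below the lower quartile (26.85). Of the 19 rising members, 2 lay above the upper and 5 below the lower quartile. The median spread within groups was close to that of all genes, at 0.19 log2 in the falling, 0.20 in the rising members and 0.18 in all genes. Levels are not corrected for the length of a gene, so sets of genes that differ in length can also differ in level. The part of gene length in these differences was not tested.

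**Figure D3:**
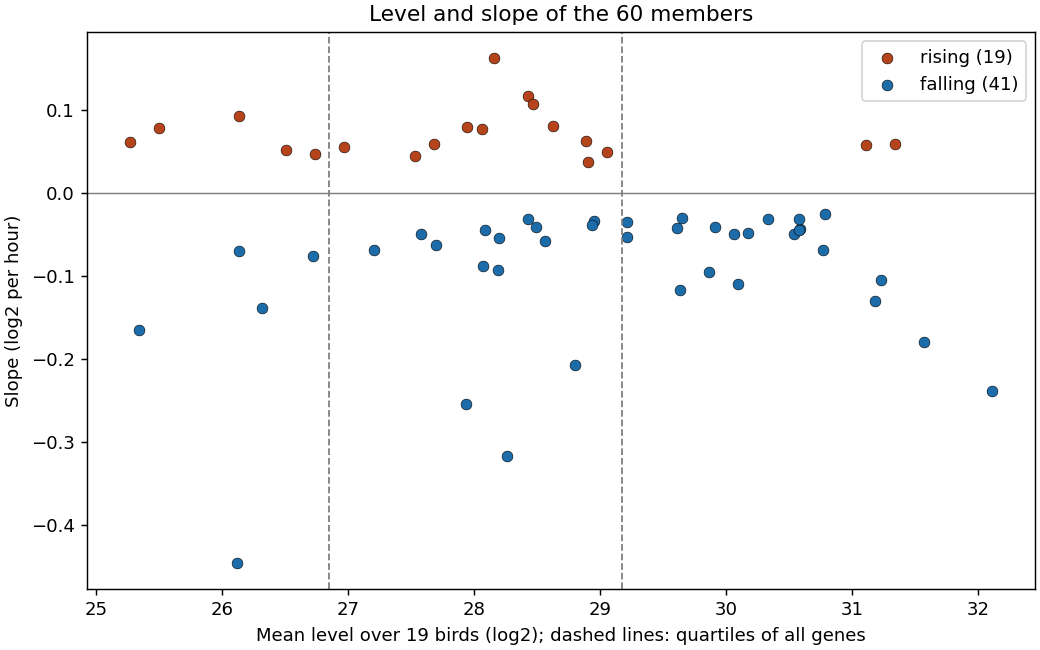
Slope (log2 per hour, model with group and sex) against mean level over 19 birds (log2) for the 60 members, each point a gene; dashed lines mark the lower and upper quartiles of all 11727 genes. Of the falling genes 21 of 41 lie right of the upper quartile, and of the rising genes 2 of 19.

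With the hour removed, the mean size of the correlation between members, whatever its sign, was close to that over all genes. No mean with its sign is given over all genes. With the hour left in, pairs of falling members had a mean correlation of 0.62 over the 19 birds, and pairs of rising members 0.56. Genes chosen for a close correlation with hour tend to correlate with each other, so these values follow largely from the choice. Over all pairs of genes the mean absolute correlation was 0.24. Once each gene's straight line with hour was removed, the mean was 0.10 among falling and -0.01 among rising members, and -0.04 between the sets. The mean size of the correlation, whatever its sign, was then 0.25 among falling, 0.24 among rising members and 0.25 over all pairs of genes.

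All 60 members had slopes of one sign in both ecotypes, in both statuses and in the 16 males alone, and 59 kept one sign in all 4 groups. Over all genes the shares were 52.5% for the ecotypes, 54.9% for the statuses, 77.0% for the males against all birds and 15.8% for the 4 groups. The choice of members over the same birds all but fixes such counts, so they are no sign of stability, and it also shapes the medians that follow. Rising members had a median of 0.06 log2 per hour in inland, coastal and migratory birds and 0.07 in non-migratory birds, and falling members -0.06 in inland, -0.05 in coastal, -0.05 in migratory and -0.07 in non-migratory birds (no sex term within these subsets). In males alone the medians were 0.06 and -0.05, with absolute correlations of 0.53 to 0.91. Whether slopes differed between ecotypes or statuses was tested as an interaction by limma. No gene of the table was called for either (0% each), and 2 members for ecotype (5.28% of all genes) and 1 for status (6.59%) had an unadjusted p under 0.05. Choosing genes for a close fit to a common line favours such low counts, so they do not show that slopes were alike. Of the 2 members for ecotype, 1 was ENSFALG00000004057. Its slopes without a sex term were -0.27 log2 per hour in inland and -0.18 in coastal birds. With sex in the model the difference was -0.11 (limma interaction, unadjusted p = 0.014), which did not pass after adjustment (adjusted p = 0.92).

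An independent check used different birds to choose genes and to measure them. The 60 genes with the largest absolute r in the 9 inland birds, all at 0.88 or more, were measured in the 10 coastal birds. There 36 of the 60 (60%) kept their sign, against 52.5% of all genes, and their median correlation in the chosen direction fell from 0.91 to 0.08. An unadjusted p under 0.05 with the same sign was reached by 10 of them (16.7%), against 4.14% of all genes. Of these 10, 6 had positive and 4 negative slopes, where the list held 32 rising and 28 falling genes. None of the 60 passed after adjustment, nor did any other gene in coastal birds (limma, smallest adjusted p = 0.14, background 0%). Genes are not independent replicates, so these shares are not tested. The share that kept its sign was 73.3%, against 56.4% of all genes, once the female taken last, migratory coastal replicate 4, was left out. It was 48.3% by rank correlation (50.6% of all genes) and also on leaving out either non-migratory inland replicate 2 (52.2%) or migratory inland replicate 5 (51.2%).

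In the opposite direction, 60 genes chosen in coastal birds were measured in inland birds, and 38 (63.3%) kept their sign, against 52.5% of all genes. With the same sign, 4 had an unadjusted p under 0.05 (6.67%, background 3.47%), all of them with negative slopes. The list chosen in coastal birds held 41 rising and 19 falling genes. One of the 60 was called in inland birds alone, ENSFALG00000004057 (limma, adjusted p = 0.023), and it was the only gene called there (0.00853% of 11727). The share that kept its sign was 46.7% (48.4% of all genes) without non-migratory inland replicate 3, the earliest bird of that group, 78.3% (54.5%) without migratory coastal replicate 3 and 86.7% (56.4%) without migratory coastal replicate 4. ENSFALG00000004057 was also the only gene on both lists, 1 of the 60 chosen in each ecotype.

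**Figure D4:**
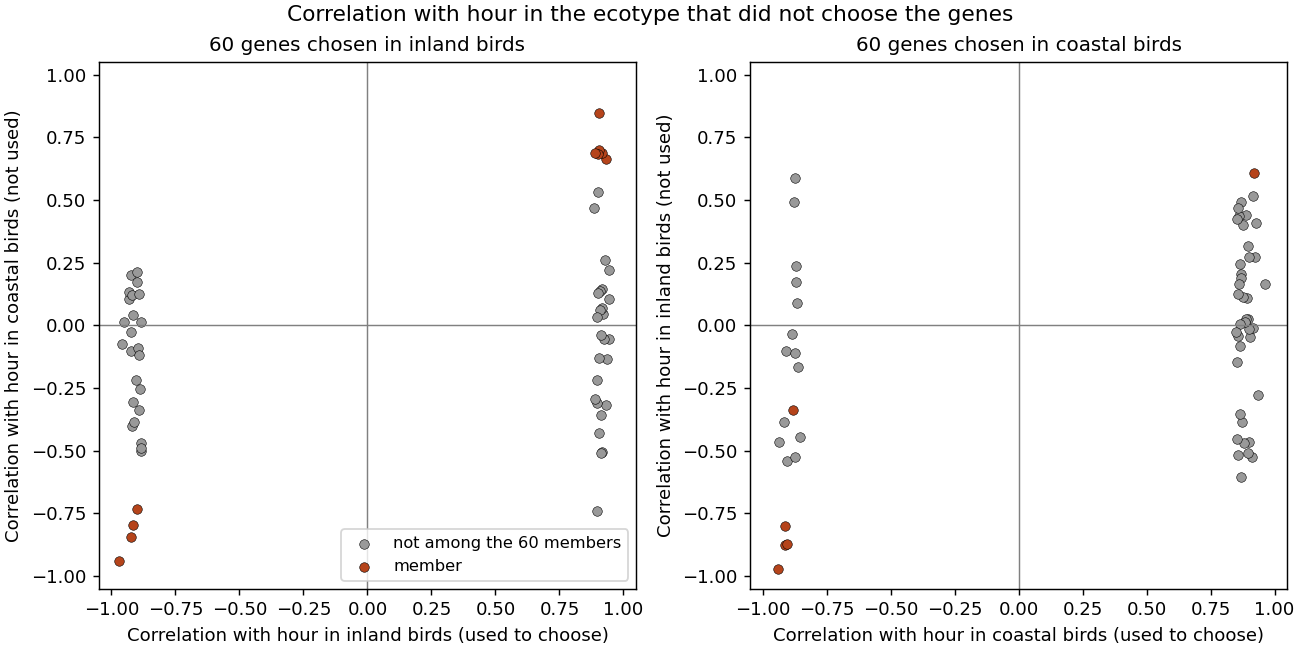
Horizontal axes give r in the ecotype that chose the 60 genes with the largest absolute correlation with hour. Vertical axes give their r in the other ecotype, which was not used to choose these lists. The left panel holds genes chosen in 9 inland birds and the right panel genes chosen in 10 coastal birds. Members of the final 60 are in orange. Members were chosen on r over the birds of both ecotypes together, so their vertical r entered that choice. The distance of the orange points from 0 is therefore no check of the members. Most chosen genes scatter around 0 in the other ecotype, with a median of 0.08 on the left and 0.11 on the right in the chosen direction, and ENSFALG00000004057 lies at the lower left end of both panels.

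A single gene per direction was then tested in the ecotype that had not chosen it, by permuting the hours within groups in every possible way (two-sided exact permutation tests, 4 tests). The falling gene with the largest correlation was ENSFALG00000004057 in both ecotypes. Chosen in coastal birds, it had a slope of -0.27 log2 per hour in the 9 inland birds, with an r of -0.97 (exact permutation p = 0.00208, adjusted 0.00417) and a rho of -0.97 (p = 0.00208, adjusted 0.00417). Chosen in inland birds, it had a slope of -0.18 in the 10 coastal birds, with an r of -0.94 (exact permutation p = 0.000579, adjusted 0.00231) and a rho of -0.90 (p = 0.0011, adjusted 0.00417). Without the 2 birds farthest from the median hour r was -0.98 in 7 inland and -0.87 in 8 coastal birds. The leading rising genes of each ecotype did not carry over. The one chosen in coastal birds (r 0.96) had an r of 0.17 in inland birds (exact permutation p = 0.704, adjusted 0.87; rho 0.10, p = 0.817, adjusted 0.933), which turned to -0.51 without the 2 birds farthest from the median hour. The one chosen in inland birds (r 0.95) had an r of -0.05 in coastal birds (exact permutation p = 0.87, adjusted 0.87; rho -0.03, p = 0.933, adjusted 0.933), and 0.22 without the 2 farthest birds. Neither was among the 60 members.

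The same choice and measurement was made between the statuses. For genes chosen in migratory birds the median correlation in the chosen direction fell from 0.895 to 0.257. For genes chosen in non-migratory birds it fell from 0.893 to 0.225, where between the ecotypes it had fallen to 0.08 and 0.11. Of 60 genes chosen in the 9 migratory birds, 42 (70.0%) kept their sign in the 10 non-migratory birds, and of 60 chosen in non-migratory birds 43 (71.7%) did so in migratory birds, against 54.9% of all genes. With the same sign, 12 genes (20%) had an unadjusted p under 0.05 in non-migratory birds, where the background was 5.58%, and 6 (10.0%) in migratory birds, where it was 3.03%. Of the first 12, 10 had negative slopes, as had all of the 6. The list chosen in migratory birds held 29 rising and 31 falling genes, and the list chosen in non-migratory birds 32 and 28. None was called after adjustment in either status (limma, smallest adjusted p among the 60 chosen genes 0.133 in non-migratory and 0.118 in migratory birds, background 0% each). Without the 2 birds taken in the other status's month the first share was 48.3% and the second 56.7%, against 47.9% of all genes. The lists chosen in the 2 statuses shared 3 genes, 3 of 60 in each. Across all 11727 genes the slopes of the ecotypes had a correlation of 0.09 and those of the statuses 0.11; these are correlations across genes, which are not independent replicates.

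Group means were removed before the members were chosen, so plain differences between group means were not used in the choice. The mean hour was 5.2 in migratory coastal, 4.7 in migratory inland, 4.6 in non-migratory coastal and 5.0 in non-migratory inland birds. A member's slope with hour can therefore enter its differences between groups. The tests of group differences also had sex in the model. The sex term comes from values within groups, where sex and hour overlapped, so these tests are not wholly independent of the choice. Hour was left out of the model, because a small residual around the hour line is what the members were chosen for. No member was called for migratory status, and no gene in the table was (limma, 0%). At an unadjusted p under 0.05 there were 2 members (3.33%) and 8.19% of all genes, and the smallest adjusted p of a member was 0.365. The median absolute difference between the statuses was 0.05 log2 in members and 0.06 over all genes, with a median SE of 0.08 in members. No member was called by limma for a status effect that differed between ecotypes (0, background 0%). At an unadjusted p under 0.05 there were 5 members (8.33%) and 8.95% of all genes, and a member's smallest adjusted p was 0.441. The median absolute difference in members was 0.14 log2 with a median SE of 0.15. The lack of calls therefore does not show that the status effects were alike.

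One member was called for ecotype, against a background of 5.94% of all genes, and 8 members (13.3%) against 21.1% had an unadjusted p under 0.05. It was the seventeenth falling gene by r. With sex in the model it was lower in inland birds by 0.58 ± 0.07 log2 (SE, 1.49-fold, limma adjusted p = 3.46e-05). The 9 inland males stood at 29.844 to 30.004 log2 and the 7 coastal males at 30.36 to 30.63, without overlap. The 3 coastal females stood at 29.83, 30.18 and 30.47, so they reached the inland level. ENSFALG00000004057 had means of 28.73 in inland and 28.87 in coastal birds. Its fitted difference, with sex in the model and averaged over the statuses, was larger than the gap between these means. It was -0.28 ± 0.21 log2 (SE) and did not pass (limma, adjusted p = 0.49).

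Sex overlaps with hour in these birds, so the difference between females and males is given with hour in the model and without a test. It ran from -0.32 to 0.53 log2 in rising members (median -0.02) and from -0.64 to 1.06 in falling members (median 0.01). Of the rising members 8 of 19 were higher in females, and of the falling 23 of 41, against 6470 of all 11727 genes. In the named genes the difference stayed between -0.07 and 0.09.

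Which genes made up the 60 depended on single birds. Leaving out 1 bird kept 20 to 52 of the 60 members among the 60 largest correlations, while all 60 kept their sign each time. The choice over nearly the same birds all but fixes these signs, so they do not show stability. The lowest number, 20, came without migratory coastal replicate 4 (8.57 hours), followed by 34 without migratory inland replicate 1 (7.65 hours), 37 without migratory coastal replicate 3 (2.52 hours) and 38 each without non-migratory coastal replicates 5 and 6 (2.65 and 7.55 hours). In males alone 17 members remained among the 60, 6 rising and 11 falling. Across the 19 sets that each left out 1 bird, 15 members were among the 60 every time, 5 rising and 10 falling. The 4 named genes were among these 15, which is favoured by their choice as the largest correlations in these birds. ENSFALG00000004057 ranked first among all genes in males, ENSFALG00000006846 second, ENSFALG00000011294 next and ENSFALG00000010646 only 142nd.

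**Figure D5:**
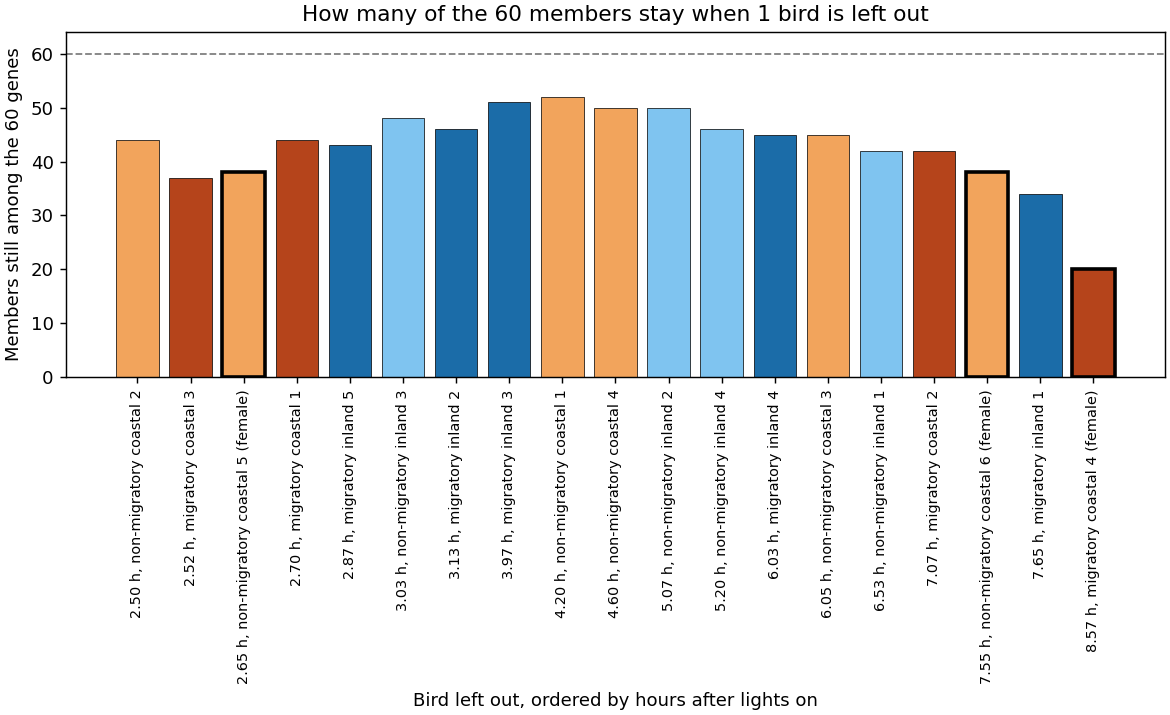
Number of the 60 members still among the 60 genes with the largest absolute correlation (vertical axis, dashed line at 60) when the bird on the horizontal axis is left out; birds are ordered by hours after lights on, colours mark the 4 groups named in the labels, and thick outlines mark females. The bars run from 20, without the migratory coastal female taken at 8.57 hours, to 52, and the 5 birds taken in the middle hours give 46 to 52.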

How the data were processed

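The authors deposited 1 table with a log2-scale value per gene and bird (the base is not stated and was read as 2). Per the file name, the values are sums over exons of protein-coding genes brought to a common scale by TMM, the trimmed mean of M values. Per the submitters' processing notes, Trim Galore 0.3.1, TopHat2 and HTSeq were used; no genome build or annotation is named (not given in the sources used here). Values lie between 20.38 and 35.98, and all column medians between 28.047 and 28.049, so differences in total RNA or depth are no longer visible and a gene is high or low only relative to the others of that bird. Counts and intervals for counting error could not be had.

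Groups came from the labels. Correlations with hour used values and hours centred within the 4 groups. Slopes and contrasts were fitted to all genes with limma 3.58.1 in R 4.3.3 (mean-variance trend, robust), and p-values were adjusted over all 11727 genes by the Benjamini-Hochberg method. No low-value filter was applied, and all 60 members were tested. The genes named are the 2 rising and the 2 falling members with the largest absolute r. Gene lists written for the clock and cell types could not be used, as no identifier matched a symbol. The members and lists were chosen with earlier results of these data known. Scripts were tested on simulated data. Alternatives were other correlations, scales, terms, grouping and sets of birds.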

Additional observations from a re-analysis of the deposited data

Results flagged for a closer look

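One value of the named genes stood far from the others of its group. ENSFALG00000006846, the leading rising gene, was at 28.09 log2 in migratory inland replicate 1, where the other 4 birds of that group lay between 27.71 and 27.79. This bird was the latest of its group, at 7.65 hours after lights on, and the only migratory bird taken in August. The gap was 0.776 of the group's range. In all, 16 sets of values (4 genes in 4 groups) were looked at in this way. About 1 in 20 is passed by chance where genes were not chosen by their values. These genes were chosen for following the hour in the same birds, which favours a high value in a late bird. That rate therefore does not hold here. The part of hour and of month in this value was not tested.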

How the results depend on the processing

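No paired analysis was made, as every bird is a separate animal. The labels give the birds no replicate numbers, and those used here only name birds. Among the 60 genes, 17 members stayed in males only and without both females taken late (a set chosen after seeing the data), 29 without the 2 birds taken in the other status's month, 31 with the day of collection removed, 33 with sex removed and 38 with groups by month and ecotype; leaving out 1 bird gave 20 to 52. Rising genes numbered 33 with the day removed, 30 without those 2 birds and 19 to 29 leaving out 1 bird. All 60 members kept their sign in every set and setting where this was counted, which their choice in the same birds all but fixes. Genes called for hour over the table numbered 11, and 7 with no sex term, 3 in males only, 4 without the 2 birds, 3 without both late females (where the sex term fits the 1 female left exactly, so this is the fit in males) and 1 to 17 leaving out 1 bird. They were 1 without non-migratory coastal replicate 5 and 17 without migratory coastal replicate 4. Members called for ecotype numbered 4 with hour added (6.67% of all genes; the choice of members makes their spread small in that model), 2 with no sex term, 2 in males only and, by the same fit, 2 without both late females, and 1 to 2 leaving out 1 bird; status and the interaction had 0 throughout. The share keeping its sign from inland to coastal birds was 48.33% by rank correlation (50.62% of all genes), 78.33% without both late females (58.22%) and 48.33% to 73.33% leaving out 1 bird. From coastal to inland birds it was 80% in males only (57.19% of all genes), 81.67% without both late females (58.22%) and 46.67% to 86.67% leaving out 1 bird. From migratory to non-migratory birds it was 48.33% without the 2 birds (47.89% of all genes) and 55% to 75% leaving out 1 bird, and in the other direction 56.67% (47.89%) and 56.67% to 80%. The cause of these shifts was not tested. Slopes of the named genes kept their sign in all alternatives, but these genes were chosen for following the hour in the same birds. Depth is unknown, so its part in these limits could not be examined.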

Other observations

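The excess of falling over rising genes was limited to the largest correlations. Among the 60 members 41 fell (68.3%), whereas over all 11727 genes 6172 rose and 5555 fell (47.4% falling), and beyond an absolute r of 0.6 there were 147 rising and 141 falling genes. The number of rising genes among the 60 was 33 when the day of collection was removed together with the group, and 30 without the 2 birds taken in the other status's month. The ratio of rising to falling genes among the 60 therefore depended on these choices.

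The main axes of variation between birds of the same group did not follow the hour closely. With 19 birds, the values below do not settle how much of the variation went with hour. Within groups, the first 3 principal components held 19.6%, 12.3% and 9.36% of the variance, and their absolute correlations with the centred hour were 0.24, 0.42 and 0.20 over the 19 birds, given as a description.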
